A study of Mus musculus with 15 samples.

Results

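The genes described here encode the protein subunits of the mitochondrial ribosome, taken as every gene whose symbol in the array's annotation starts with Mrpl (large subunit) or Mrps (small subunit) followed by a digit. This rule gave 76 genes, 47 with an Mrpl and 29 with an Mrps symbol, of 18193 genes measured in the livers of 15 male C57BL/6J mice. Feeding began at 7 weeks of age and lasted 9 weeks, with 5 groups of 3 mice and 1 Affymetrix Mouse Genome 430 2.0 array a liver. Fat supplied 10% of the energy in the normal diet (ND) and 60% in the high-fat diet (HF). The same high-fat diet held 2% caffeinated coffee in HFCC, 2% decaffeinated coffee in HFDC and 2% unroasted green coffee in HFGC. HF is therefore the control of the 3 coffee diets, and ND is the only group without the high-fat diet. Mrpl30 and Mrpl53 were represented only by probe sets that also name another gene, so they are not among the 76.

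Mitochondria carry their own small genome, whose messages encode core subunits of the respiratory chain, and they translate them on a ribosome of their own. All proteins of that ribosome are encoded in the nucleus, made in the cytosol and imported, and they assemble on RNAs transcribed inside the organelle. Some are descended from the ribosomal proteins of bacteria, while others are found only in mitochondria. In liver, a tissue rich in mitochondria, this machinery supplies the parts of the respiratory complexes that oxidise the products of fatty acid breakdown.

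All values below are log2 of the probe set intensity that the authors computed by RMA, and calls were made in limma at 0.05 after Benjamini-Hochberg adjustment over all 18193 genes. The defining hepatocyte markers were bright on every array (mean log2 from 11.87 to 14.76) and none was called between HF and ND. Between HF and ND 2465 of the 18193 genes passed, and between the coffee groups and HF 1868. Of 27 measured markers of 8 other cell types, 4 were called between HF and ND and 2 between the coffee groups and HF. One of them, Stab2 of the liver sinusoid, was called in both. The summed intensity of the 4 endothelial markers ran from 870 to 914 in ND, from 1058 to 1146 in HF and from 904 to 1056 over the coffee groups. The 4 stellate cell markers summed to 969 to 1293 in ND, 1335 to 1639 in HF and 1209 to 1497 with coffee, and the 1 pancreas marker read 237 to 320, 454 to 607 and 451 to 639. The 3 muscle markers went the other way, with 112 to 119 in ND, 105 to 108 in HF and 109 to 126 with coffee. Among them 1 was called lower in HF than in ND and 1 higher with coffee than in HF. The part of all these markers in the results was not tested. In whole liver, fewer cells of a type and less RNA per cell cannot be told apart. The 3' minus 5' signal of the Gapdh and Actb control probe sets, which rises with RNA degradation, was 1.22 ± 0.17 (SD, n = 3) in HF with its highest value, 1.40, on HF replicate 2. The other 12 arrays lay between 0.70 and 1.07. Since the HF arrays hold the 3 highest values, diet and this measure cannot be told apart by these arrays, and results are therefore given with and without it, and with and without HF replicate 2.

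All 76 members were at or above the median gene, and 67 were among the brightest 25% of all genes. Their median level was 9.36, beside 6.41 for all genes. The brightest probe sets were those of Mrpl39 (mean 11.44), a large subunit protein related in sequence to threonyl-tRNA synthetase, Mrpl12 (11.19), part of the stalk that binds translation factors, and Mrpl51 (10.87). The dimmest were those of Mrps27 (7.53), Mrps25 (7.67) and Mrpl37 (7.75). A probe set's brightness also depends on its probes, so this order is not one of transcript number.

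Between HF and ND members moved in both directions. Of the 76, 10 were called higher in HF (13.2%), where 8.92% of all genes were, and 7 were called lower (9.21%), where 4.63% of all genes were. Since the members are bright, a second background is that of the 9097 genes at or above the median level, of which 15.2% were called higher and 5.44% lower. The median difference over the members was 0.03, with a range from -0.42 to 0.70, beside -0.0015 for all genes and 0.05 for those at or above the median level. Rescaling the arrays by cyclic loess turned the members' median to -0.02 and raised the number called lower to 12. Over all genes it raised the number called lower from 843 to 1108. Among the members called, the largest rise was that of Mrps27, followed by Mrpl45, Mrpl28, Mrpl37, Mrpl23, Mrpl2, Mrpl38, Mrps25, Mrps30 and Mrpl52. The largest fall called was that of Mrpl50, followed by Mrps22, Mrpl47, Mrpl32, Mrpl42, Mrps2 and Mrpl17. All 3 HF arrays lay above all 3 ND arrays for 13 members and below them for 13. Over all genes this was so for 15.7% and 10.8%.

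**Figure D1:**
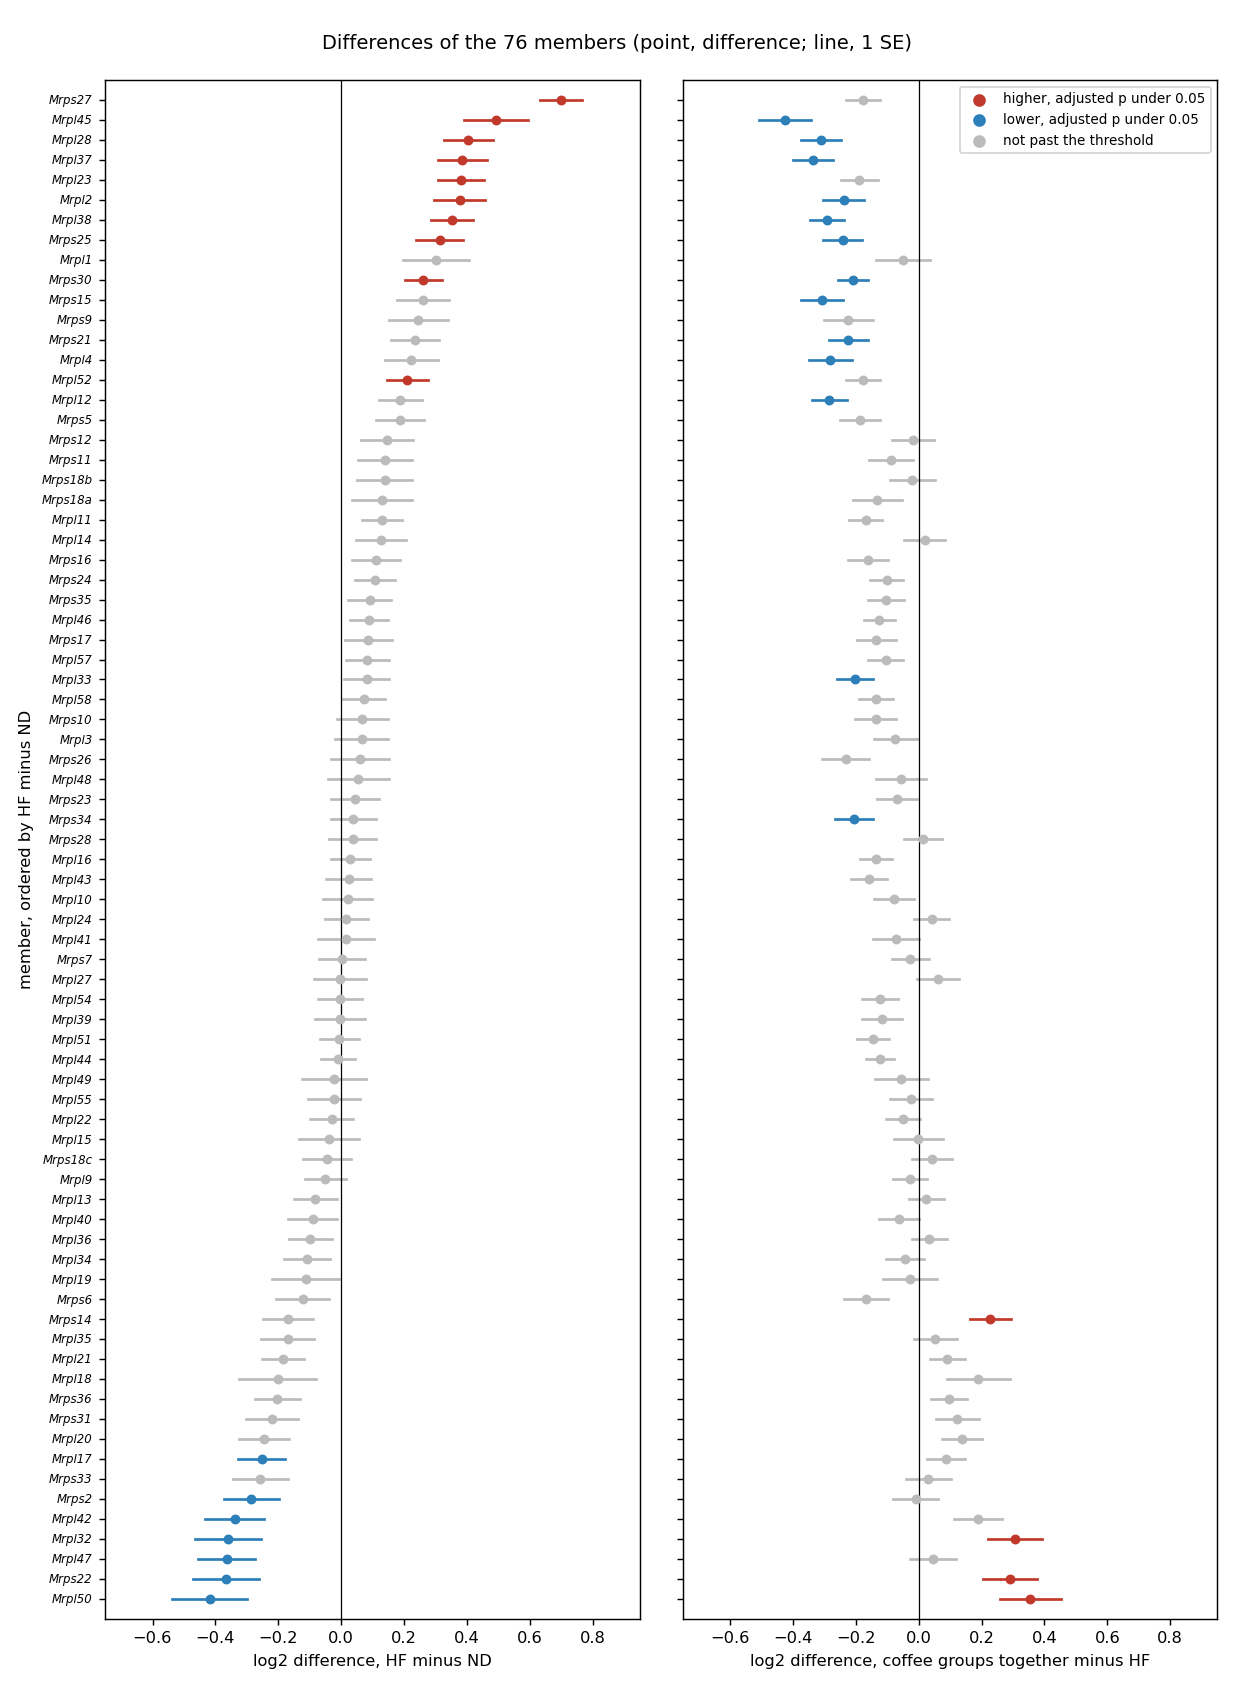
Each of the 76 members is a row, ordered by its log2 difference of HF minus ND (left), with the difference of the 9 coffee arrays minus HF at the right. Points are differences from limma and lines 1 standard error; red and blue points passed an adjusted p of 0.05 as higher (10 left, 4 right) or lower (7 left, 13 right). Both panels use the same 3 HF arrays, so an error in those arrays moves them in opposite directions.

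Mrps27 had the largest difference of the 76 members. It encodes a protein of the small subunit with pentatricopeptide repeats, a fold used to hold RNA, and has no bacterial counterpart. In ND its 3 arrays read 7.06, 7.10 and 7.07, and in HF they read 7.67, 7.82 and 7.83. With caffeinated coffee the values were 7.65, 7.68 and 7.80, with decaffeinated coffee 7.36, 7.47 and 7.43, and with green coffee 7.63, 7.74 and 7.64. Every one of the 12 livers on a high-fat diet was thus above every ND liver, and the HFDC livers lay between ND and the other groups without overlapping either. HF exceeded ND by 0.70 (SE 0.07, 95% interval 0.55 to 0.84), a 1.62-fold difference with an adjusted p of 0.000104. The 9 coffee livers together exceeded ND by 0.52 (SE 0.06, adjusted p = 0.000329), or 1.44-fold, and differed from HF by -0.18 (SE 0.06), which did not pass the threshold (adjusted p = 0.0550). Both calls above ND were kept in each of the 15 fits that left out 1 array, with adjusted p-values up to 0.00138 and 0.00307, and under all other settings tried. Adding the 3' minus 5' signal to the model as a covariate left the difference between HF and ND at 0.70 (adjusted p = 0.0196), while only 14 of all 18193 genes were then called and Mrps27 was the only one of the 17 called members among them.

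**Figure D2:**
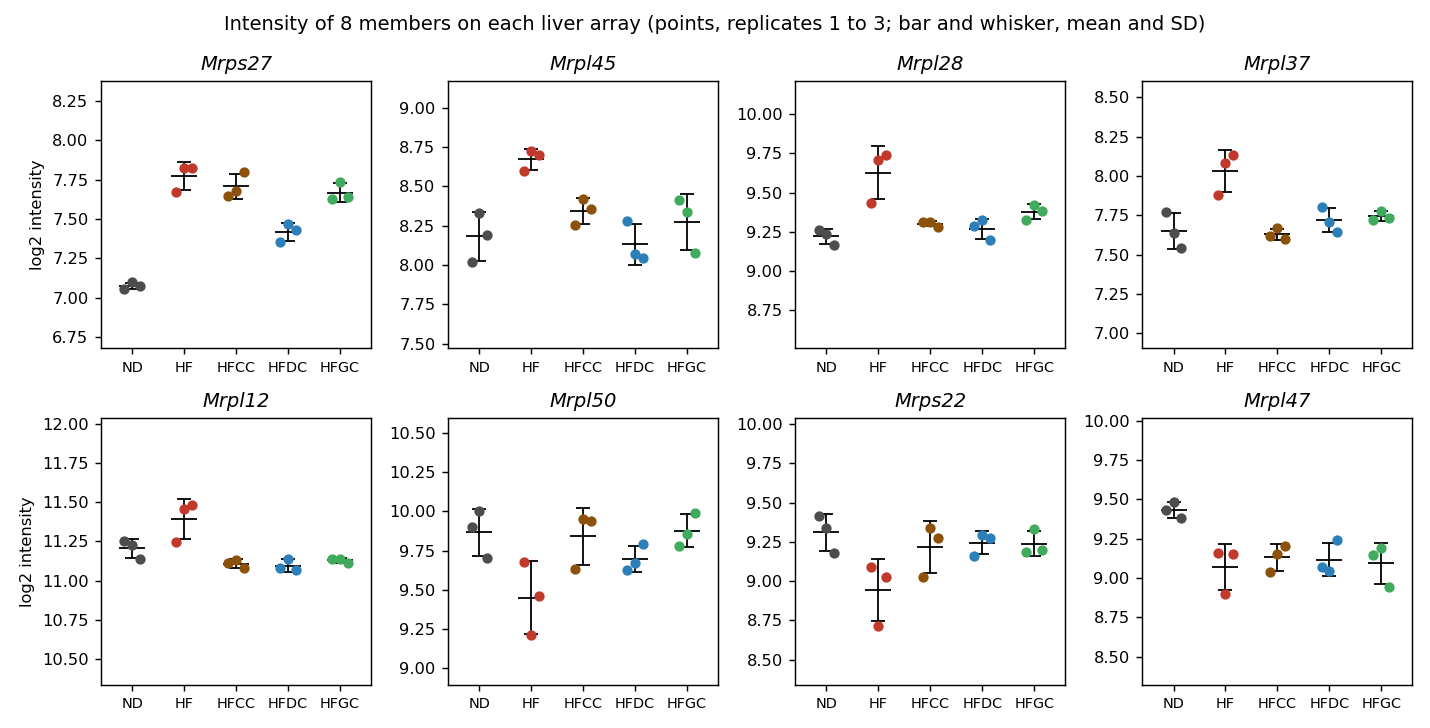
Log2 intensity of 8 members on each of the 15 liver arrays, by diet group; points are replicates 1, 2 and 3 from left to right, and the bar and whiskers are the mean and SD (n = 3). Every panel spans the same range of log2 values. Mrps27 is at 7.06 to 7.10 in ND and at 7.36 or more in all other livers, while Mrpl50 and Mrps22 are lowest on HF replicate 2.

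Among the other members that rose, those of the large subunit were the most numerous. Mrpl45, which sits where the growing chain leaves the ribosome and anchors it to the inner membrane, read 8.02, 8.33 and 8.19 in ND and 8.60, 8.73 and 8.70 in HF. The groups did not overlap, and HF was higher by 0.49 (SE 0.10, adjusted p = 0.00787), or 1.41-fold. In the coffee groups it read 8.25, 8.42 and 8.35 (HFCC), 8.28, 8.07 and 8.04 (HFDC) and 8.42, 8.34 and 8.07 (HFGC), all below the HF values and overlapping those of ND. Mrpl28, which descends from the bacterial protein L28, read 9.26, 9.24 and 9.17 in ND and 9.43, 9.71 and 9.74 in HF. HF was higher by 0.40 (SE 0.08, adjusted p = 0.00582), with HF replicate 1 closest to ND.

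Mrpl37, a large subunit protein without a bacterial counterpart, read 7.77, 7.64 and 7.54 in ND and 7.88, 8.08 and 8.13 in HF, higher by 0.38 (SE 0.08, adjusted p = 0.00762). Mrpl23, which lines the exit of the tunnel, rose by 0.38 (adjusted p = 0.00587), and Mrpl2, a conserved protein close to the site where peptide bonds form, rose by 0.38 (adjusted p = 0.00902). Mrpl38 rose by 0.35 (adjusted p = 0.00534) and Mrps30, which despite its name is part of the large subunit, by 0.26 (adjusted p = 0.0118). Mrps27 and these 7 large subunit genes were kept whichever array was left out, but with the 3' minus 5' covariate the adjusted p-values of the 7 ran from 0.140 to 0.296. Their differences were then 0.31 to 0.36, where they had been 0.26 to 0.49, and only that of Mrpl45 moved by over 1.5 times, to 0.32. Mrps25 of the small subunit (0.31, adjusted p = 0.0144) was lost without HF replicate 2 or 3. Mrpl52 (0.21, adjusted p = 0.0469) was lost in 14 of the 15 fits that left out 1 array. Both were also lost with the probe sets of a gene averaged.

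The members that fell in HF all rested on HF replicate 2. Mrpl50, a large subunit protein found in mitochondria and not in bacteria, read 9.90, 10.00 and 9.71 in ND and 9.68, 9.21 and 9.46 in HF. Its HF values lay below its ND values, with the lowest on HF replicate 2, and the difference was -0.42 (SE 0.12, adjusted p = 0.0311). Without that array it was -0.30 (adjusted p = 0.142), and with the 3' minus 5' covariate it was -0.01 (adjusted p = 0.971). Mrps22, a small subunit protein whose human counterpart is mutated in an inherited disease of the respiratory chain, read 9.41, 9.34 and 9.18 in ND and 9.09, 8.72 and 9.02 in HF. It fell by 0.37 on the log2 scale (SE 0.10, adjusted p = 0.0320), and the difference was -0.25 (adjusted p = 0.146) without HF replicate 2 and -0.06 (adjusted p = 0.837) with the covariate. Mrpl32, whose precursor is cut to its mature form by a protease of the inner membrane before it joins the ribosome, read 9.48, 9.62 and 9.41 in ND and 9.38, 8.88 and 9.16 in HF. Its difference was -0.36 (adjusted p = 0.0357), with -0.23 (adjusted p = 0.157) without HF replicate 2 and -0.07 (adjusted p = 0.814) with the covariate.

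Mrpl47, the relative of bacterial L29 at the tunnel exit, was low in the coffee groups as well as in HF. It read 9.44, 9.49 and 9.38 in ND and 9.16, 8.90 and 9.15 in HF, a difference of -0.36 (SE 0.09, adjusted p = 0.0164). All 9 coffee livers were below all 3 ND livers, with group means of 9.13 (HFCC), 9.12 (HFDC) and 9.09 (HFGC). The difference between HF and ND was lost without HF replicate 2 (-0.28, adjusted p = 0.0813) and was the only fall that no other left-out array removed. Mrpl42 (-0.34), Mrps2 (-0.29) and Mrpl17 (-0.25) completed the 7 falls, with adjusted p-values from 0.0268 to 0.0431. None of the 7 remained without HF replicate 2 or with the covariate, which left Mrpl47 at -0.23, Mrps2 at -0.16, Mrpl17 at -0.13 and Mrpl42 at -0.07. Leaving out ND replicate 1 or ND replicate 2 left 1 fall in each case, and leaving out HF replicate 3 left 2. Of all genes 612, 608 and 350 fell in these fits, and 296 without HF replicate 2. With the probe sets of a gene averaged, the calls of Mrpl47, Mrpl42 and Mrpl17 were lost.

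The promoters of members that moved show what these genes share or do not share in sequence. They are printed for Mrps27 with the largest rise, for Mrpl28 as another rise, and for 2 of the falls, as the 250 bases before the RefSeq start (GRCm38.p6), 5′ to 3′ on the gene's strand. Capitals mark matches on either strand to CCGGAAG, the core bound by ETS factors such as GABPA, GCGCATGC of the NRF1 site, and AGATGGCG of the YY1 site, which may overlap one another. These factors are known regulators of nuclear genes for mitochondrial proteins.
Mrps27, chr13:99344536-99344785 (plus strand): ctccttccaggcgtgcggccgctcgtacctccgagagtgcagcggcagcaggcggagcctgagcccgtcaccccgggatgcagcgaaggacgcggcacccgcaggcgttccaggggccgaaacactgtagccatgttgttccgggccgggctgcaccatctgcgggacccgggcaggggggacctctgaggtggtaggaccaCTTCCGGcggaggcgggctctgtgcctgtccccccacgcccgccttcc
Mrpl28, chr17:26123253-26123502 (plus strand): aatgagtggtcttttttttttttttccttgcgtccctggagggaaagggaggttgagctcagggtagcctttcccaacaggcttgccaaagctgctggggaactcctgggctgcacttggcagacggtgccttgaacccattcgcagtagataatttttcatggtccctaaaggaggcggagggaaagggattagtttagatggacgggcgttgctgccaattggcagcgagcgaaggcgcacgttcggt
Mrps22, chr9:98601680-98601929 (minus strand): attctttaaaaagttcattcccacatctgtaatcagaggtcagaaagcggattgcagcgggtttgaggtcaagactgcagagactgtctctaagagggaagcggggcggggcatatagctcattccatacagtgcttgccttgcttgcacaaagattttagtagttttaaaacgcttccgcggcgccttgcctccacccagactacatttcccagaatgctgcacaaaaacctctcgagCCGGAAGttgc
Mrpl32, chr13:14613038-14613287 (minus strand): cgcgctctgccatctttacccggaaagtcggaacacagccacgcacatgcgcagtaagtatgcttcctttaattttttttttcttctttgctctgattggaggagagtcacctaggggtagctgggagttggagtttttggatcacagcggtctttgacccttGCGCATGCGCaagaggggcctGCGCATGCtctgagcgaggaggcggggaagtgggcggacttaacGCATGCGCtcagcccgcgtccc
Mrps27 has 1 ETS match, 48 bases before its start, and Mrps22 has 1, 11 bases before its start. Mrpl32 has 4 NRF1 matches, of which a pair overlap as the 2 strands of 1 palindrome. Mrpl28 has no match to these letters in this window. RefSeq windows were found for 67 of the 76 members (73 windows), and 25 of these windows, or 34.2%, held at least 1 of the 3 motifs, as did 9.67% of the 32851 windows of all genes. Those windows cover 27025 RefSeq genes, measured here or not, and were not matched to the members by level or base composition. A gene with several starts counts once for each window. The ETS core was in 23.3% of member windows and 6.91% of all, the NRF1 letters in 11% and 2.26%, and the YY1 letters in 2.74% and 1.03%. Of the 11 windows of members that rose in HF, 2 held a motif, and of the 7 windows of members that fell, 3 did, which is too few to compare.

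With coffee added to the high-fat diet, the members lay mostly lower than in HF. Over the 9 coffee arrays together, 13 of 76 members were called lower than in HF (17.1%), where 6.88% of all genes were, and 4 were called higher (5.26%), where 3.39% of all genes were. Among genes at or above the median level these shares were 12.5% and 5.16%. The median difference was -0.08, beside 0.01 for all genes and -0.04 for those at or above the median level, and 55 members were below 0. Rescaling the arrays by cyclic loess gave a median of -0.02 over the members and 6 called lower. Over all genes 786 were then called lower, where 1251 had been. This comparison and that of HF with ND share the HF arrays, so opposite signs in them are not 2 separate observations.

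The largest fall was at Mrpl45, by 0.42 (SE 0.08, adjusted p = 0.0104), followed by Mrpl37 with -0.34 (adjusted p = 0.00958) and Mrpl28 with -0.31 (adjusted p = 0.0113). Mrps15, a conserved small subunit protein, differed by -0.31 (adjusted p = 0.0145), Mrpl38 by -0.29 (adjusted p = 0.00926) and Mrpl4 by -0.28 (adjusted p = 0.0217). With the probe sets of a gene averaged, Mrpl38 was at -0.08 (adjusted p = 0.352), and its calls here and in HFDC and HFGC were lost. Mrpl12 read 11.25, 11.46 and 11.48 in HF, and between 11.07 and 11.14 on all 9 coffee arrays. These values do not overlap, and the difference was -0.28 (SE 0.06, adjusted p = 0.0105), whereas its difference between HF and ND, 0.19, was not past the threshold (adjusted p = 0.0802). Mrps25, Mrpl2, Mrps21, Mrps30, Mrps34 and Mrpl33 completed the 13, with differences from -0.24 to -0.20. The 4 members called higher were Mrpl50 (0.35), Mrpl32 (0.31), Mrps22 (0.29) and Mrps14 (0.23), with adjusted p-values from 0.0325 to 0.0433. With probe sets averaged, the calls of Mrps25, Mrps21, Mrpl33, Mrpl50 and Mrps14 were lost as well as that of Mrpl38. For no member did all coffee arrays lie above all HF arrays, while for 17 they all lay below. The shares of all genes for which this was so were not computed, so these counts have no background.

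All 17 of these calls were lost without HF replicate 2, and all 17 without HF replicate 3. Some differences moved little all the same: over the 15 fits Mrpl45 stayed between -0.46 and -0.39, Mrps25 between -0.26 and -0.22, and Mrps30 between -0.22 and -0.20. Of the 17, 9 were lost in no other fit that left out an array (Mrpl45, Mrpl37, Mrpl28, Mrps15, Mrpl38, Mrpl12, Mrpl4, Mrps25 and Mrps30). Across all genes the calls between the coffee groups and HF then came to 4 without HF replicate 2. With HF replicate 1 left out instead, 4 members were called higher and 21 lower, where 1075 and 1663 of all genes were. With the 3' minus 5' covariate no member was called (0 of all genes were), and the median difference was -0.14. The 13 members called lower were then at -0.29 to -0.10, among them Mrps15 at -0.29 and Mrpl4 at -0.29. Of the 4 called higher, Mrpl50 turned to -0.03, and Mrpl32 (0.04), Mrps14 (0.02) and Mrps22 (0.0013) were close to 0. At an unadjusted p under 0.05, 34 of 76 members differed between the coffee groups and HF with all arrays, as did 4634 of all 18193 genes.

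**Figure D3:**
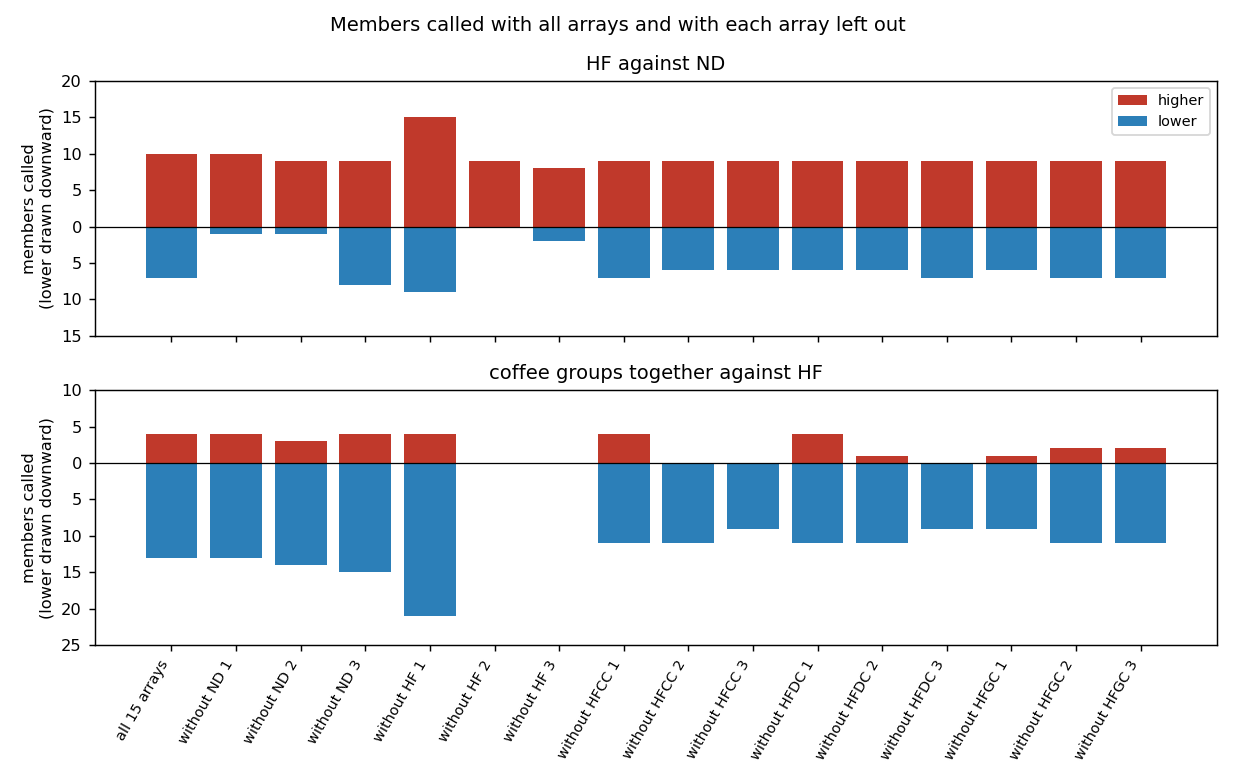
Number of members called higher (red, upward) and lower (blue, downward) at an adjusted p under 0.05, between HF and ND (top) and between the coffee groups together and HF (bottom), with all 15 arrays and with each array left out in turn. Without HF replicate 2 or HF replicate 3 no member is called between the coffee groups and HF, while the rises between HF and ND number from 8 to 15 in every fit.

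Taken one by one against HF, the coffees gave fewer calls. In HFCC, 0 members were called higher, where 0.379% of all genes were, and 2 lower, where 1.26% of all genes were: Mrpl37 (-0.40, SE 0.08, adjusted p = 0.0325) and Mrpl12 (-0.29, adjusted p = 0.0499). In HFDC, 0 were called higher, where 1.31% of all genes were, and 10 lower, where 3.7% of all genes were. These 10 were Mrpl45 (-0.54, SE 0.10, adjusted p = 0.0219), Mrps27 (-0.36, adjusted p = 0.0219), Mrpl28 (-0.36, adjusted p = 0.0272), Mrps25, Mrpl37, Mrpl38, Mrpl23, Mrpl12, Mrps34 and Mrps30. In HFGC, 0 were called higher, where 0.781% of all genes were, and 3 lower, where 2.31% of all genes were: Mrpl45 (-0.40, adjusted p = 0.0476), Mrpl38 (-0.31, adjusted p = 0.0321) and Mrpl12 (-0.27, adjusted p = 0.0489). At an unadjusted p under 0.05 the members differing from HF numbered 32, 30 and 22 of 76 in HFCC, HFDC and HFGC. Of all 18193 genes, 3345, 4122 and 3747 did. Mrpl50 had larger differences than most called members, 0.39 in HFCC and 0.43 in HFGC, which did not pass (adjusted p = 0.0881 and 0.0605). No member was called in any of the 3 coffees without HF replicate 2, and each of these calls was also lost without HF replicate 3 and without at least 2 of the coffee's own arrays.

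No member was called between any of the coffees. Between HFDC and HFCC 0 members were called (0.0934% of all genes were), between HFGC and HFCC 0 (0.0% of all genes), and between HFGC and HFDC 0 (0.0385% of all genes). At an unadjusted p under 0.05 in limma, 2, 1 and 5 of the 76 members differed in these 3 pairs, as did 1450, 464 and 1226 of all 18193 genes. The 95% interval of the difference lay within 1.5-fold in either direction for all 76 members in each pair, so larger differences between coffees are outside those intervals. The pair closest to a call was that of Mrps27, lower in HFDC than in HFCC by 0.29 (95% interval of the difference -0.43 to -0.15, adjusted p = 0.136) and higher in HFGC than in HFDC by 0.25 (0.11 to 0.39, adjusted p = 0.358). In both pairs the 3 HFDC livers lay below the 3 of the other coffee. Mrpl15 was next, with 0.31 between HFGC and HFDC (adjusted p = 0.452).

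Against ND, a comparison in which no HF array takes part, the coffee groups together differed at few members. Only Mrps27 was called higher (1.32%), where 2.36% of all genes were, and 3 members were called lower (3.95%), where 1.73% of all genes were. The 3 were Mrpl47 (-0.32, SE 0.07, adjusted p = 0.0247), Mrps2 (-0.29, SE 0.07, adjusted p = 0.0322) and Mrps6 (-0.29, SE 0.07, adjusted p = 0.0295). Mrps2 and Mrps6 are conserved small subunit proteins. Mrps2 read 9.78, 9.52 and 9.46 in ND and between 9.17 and 9.40 on all coffee arrays, and between 9.22 and 9.38 on the HF arrays. Mrps6 read 8.88, 8.66 and 8.70 in ND and between 8.29 and 8.67 with coffee, so that the groups overlapped by 1 HFGC array. All 3 were kept with the 3' minus 5' covariate (adjusted p = 0.0242, 0.0325 and 0.0152) and without HF replicate 2, and each was lost when ND replicate 1 was left out. With probe sets averaged, the calls of Mrpl47 (-0.11, adjusted p = 0.236) and Mrps2 (-0.26, adjusted p = 0.0628) were lost. Mrpl47 was also lost without ND replicate 2 or 3, Mrps6 without ND replicate 3 or HFCC replicate 3, and Mrps2 without HFCC replicate 1, HFDC replicate 2 or HFGC replicate 2. The median difference over the members was -0.05, beside 0.01 for all genes.

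Across the 5 groups at once, 8 of 76 members were called by the moderated F test (10.5%), where 7.27% of all genes were. They were Mrps27, Mrpl38, Mrpl45, Mrpl37, Mrpl23, Mrpl28, Mrps25 and Mrpl12, with adjusted p-values from 0.000382 (Mrps27) to 0.0460 (Mrpl12). Without HF replicate 2 only 1 was called, where 300 of all 18193 genes were.

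The calls were spread over both subunits. Counts between HF and ND with all arrays are to be read beside the 8.92% of all genes called higher and 4.63% called lower. At or above the median level these shares were 15.2% and 5.44%. Of 29 large subunit proteins conserved from bacteria, 3 rose and 3 fell between ND and HF, with a median of -0.02. Of 20 large subunit proteins specific to mitochondria, 5 rose and 2 fell, with a median of 0.04. Of 16 conserved small subunit proteins, 0 rose and 1, Mrps2, fell, with a median of 0.10, and of 10 small subunit proteins specific to mitochondria, 2 rose and 1 fell, with a median of 0.05. Against HF the coffee groups together had medians of -0.03, -0.12, -0.12 and -0.09 in these lists. There 5, 4, 2 and 2 members were called lower, and 1 was called higher in each list. Of all genes 6.88% were called lower and 3.39% higher, and at or above the median level 12.5% and 5.16%. Without HF replicate 2 the rises in HF numbered 4, 4, 0 and 1 in the same order, with 0 falls. Of all 18193 genes, 693 rose and 296 fell in that fit. Between coffee and HF 0 members of the lists were then called, where 4 of all genes were. No test between the lists was made. Mrps36, which is now regarded as a component of the oxoglutarate dehydrogenase complex and not of the ribosome, was left out of the 4 lists. Its level was 8.24 ± 0.05 in ND and 8.04 ± 0.06 in HF (SD, n = 3), and this difference of -0.20 was not past the threshold (adjusted p = 0.0707).

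The members shifted together on some arrays, by a median of up to 0.11 on the log2 scale. Of the 76, only 7 lay above their own means on HFDC replicate 1 and 8 on HFCC replicate 1. On ND replicate 1 and HF replicate 3, 59 and 57 did. Over all genes the median deviation of an array ran from -0.013 to 0.0096. All 76 members are at or above the median level, and the deviation of such genes was not computed by array. Whether the shift is particular to the members was therefore not tested. Each array's median deviation of the 76 members from their own means was 0.07, 0.04 and -0.07 in ND, 0.01, 0.04 and 0.11 in HF, -0.08, 0.03 and -0.0041 in HFCC, -0.09, -0.04 and -0.02 in HFDC, and 0.0037, 0.0082 and -0.0008 in HFGC. The ND arrays alone spanned more than the difference between the means of ND (0.01) and HF (0.05). HFDC had the lowest mean (-0.05 ± 0.03, SD, n = 3), and its 3 arrays lay below the 3 of HF.

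**Figure D4:**
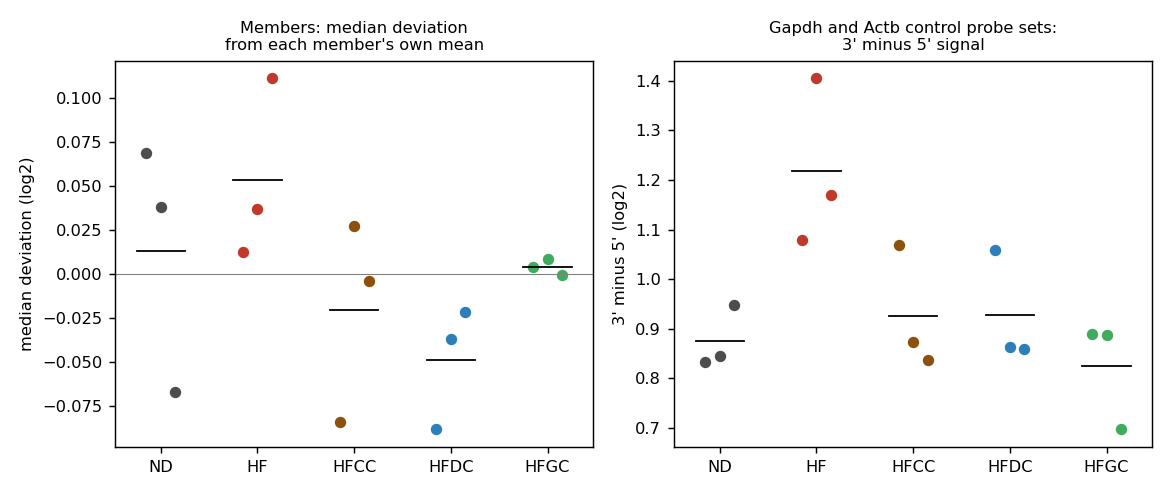
Left, median deviation (log2) of the 76 members from each member's own mean over 15 arrays, 1 point an array. Right, 3' minus 5' signal (log2) of the Gapdh and Actb control probe sets on the same arrays. Lines are group means (n = 3); the HF arrays hold the 3 highest values at the right, with HF replicate 2 at 1.40, while at the left HF and ND overlap.

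Where a member had several probe sets, their differences often had opposite signs, in some cases close to 0 (Mrpl39, -0.0041 and 0.07). Of the 76 members 42 had more than 1 probe set, and for 22 of these the probe sets lay on both sides of 0 between HF and ND. In 7 of the 22 at least 1 probe set was called in a fit over all probe sets, and none had calls in both directions. Mrpl52 is the clearest case: its brightest probe set, 1415761_at, was at 0.21 (adjusted p = 0.0549 over all probe sets), while 1460701_a_at, about as bright (mean 9.76 against 9.93), fell by 0.28 on the log2 scale (adjusted p = 0.0352). Mrpl57 was at 0.08 by its bright probe set (mean 9.66) and -0.43 by 1460225_at, a dim one (mean 5.19, adjusted p = 0.00853). Mrpl51 was at -0.01 by its bright probe set and -0.30 by 1416878_at (mean 6.01, adjusted p = 0.0242).

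In Mrps23, the call was on a dim probe set, 1459806_x_at (0.34, mean 5.28, adjusted p = 0.0421), whose name marks possible binding to other transcripts, and the 2 brighter ones were at -0.34 and 0.04. For Mrpl17, Mrpl47 and Mrps25 the called probe set was the brightest (-0.25, -0.36 and 0.31), and each had a dimmer one with the opposite sign. Which transcript ends these probe sets read was not analysed here.

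**Figure D5:**
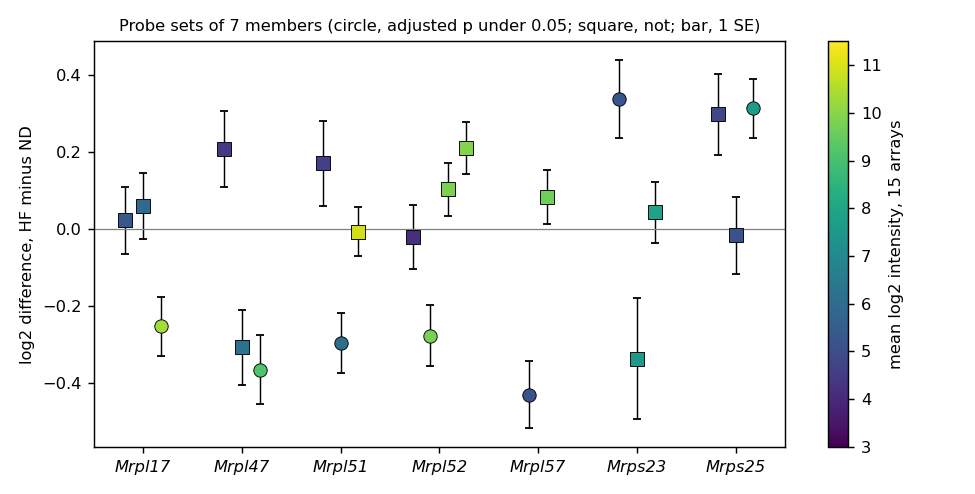
Log2 difference of HF minus ND for each probe set of the 7 members with probe sets on both sides of 0 and at least 1 of them called; bars are 1 standard error, circles passed an adjusted p of 0.05 over all probe sets and squares did not. Within a member, probe sets run from dim to bright, and the colour gives the mean log2 intensity. Mrpl52 holds 3 bright probe sets, from -0.28 to 0.21.

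Other genes of mitochondrial translation gave a mixed picture. Of the 4 measured subunits that carry other symbols, Dap3 was called. It encodes a GTP-binding protein of the small subunit, and read 9.12, 9.26 and 9.09 in ND and 9.54, 9.82 and 9.87 in HF, without overlap. It rose by 0.58 (SE 0.09, adjusted p = 0.00244) and was kept whichever array was left out, but not with the 3' minus 5' covariate (0.51, adjusted p = 0.127). With coffee Dap3 was lower than in HF by 0.30 (adjusted p = 0.0223), a call lost without HF replicate 2 or HF replicate 3, and it was still above ND by 0.28 (adjusted p = 0.0496).

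For the lists that follow, the shares of all genes to set beside the counts are the 8.92% called higher and 4.63% called lower between HF and ND, and the 3.39% and 6.88% with coffee against HF. Of 12 measured translation factors, 3 rose in HF and 0 fell: Mrrf, the ribosome recycling factor (0.34, adjusted p = 0.00745), Tufm, the elongation factor that brings tRNAs to the ribosome (0.31, adjusted p = 0.0206), and Tsfm, its exchange factor (0.27, adjusted p = 0.00997). Of 16 mitochondrial aminoacyl-tRNA synthetases, which load tRNAs with amino acids, 3 rose and 0 fell: Ears2 (0.48), Cars2 (0.37) and Tars2 (0.29), with adjusted p-values from 0.00582 to 0.0224. Of these 6, Mrrf, Tsfm, Ears2 and Cars2 were kept whichever array was left out. Tufm and Tars2 were both lost when HF replicate 2 or HF replicate 3 was dropped. Dropping ND replicate 1 also removed Tufm, and dropping ND replicate 2 or ND replicate 3 also removed Tars2. With the 3' minus 5' covariate none of the 6 was called, with adjusted p-values from 0.179 to 0.462. The differences were then 0.42 for Ears2, 0.32 for Cars2, 0.28 for Mrrf, 0.27 for Tsfm, 0.22 for Tufm and 0.17 for Tars2, so that only Tars2 moved by over 1.5 times.

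Of 24 genes of ribosome assembly and rRNA modification, 3 rose and 2 fell in HF, and 7 fell and 1 rose with coffee against HF. Ddx28, an RNA helicase of large subunit assembly, rose by 0.41 (adjusted p = 0.00349) and was lower with coffee by 0.35 (adjusted p = 0.00728). Spg7, a subunit of the protease that matures Mrpl32, rose by 0.41 (adjusted p = 0.00594), and both rises were kept whichever array was left out. With the 3' minus 5' covariate neither was called, though the differences stayed at 0.37 for Ddx28 (adjusted p = 0.141) and 0.39 for Spg7 (adjusted p = 0.170). The 8 calls with coffee in this list were all lost without HF replicate 2. Grsf1, an RNA-binding protein of mitochondrial RNA granules, fell by 0.51 (adjusted p = 0.0142), and its difference was -0.12 (adjusted p = 0.668) with the 3' minus 5' covariate. Of 18 genes of mitochondrial transcription and its regulators, 0 were called between HF and ND by limma. At an unadjusted p under 0.05, 4 of them differed, as did 5248 of all 18193 genes. Against HF, coffee gave 1 rise, Gabpa (0.35, adjusted p = 0.0398), and 1 fall, Ppargc1b (-0.51, adjusted p = 0.00926), both lost without HF replicate 2. The coffees differed in Ppargc1b, with a mean of 8.11 in HF, 7.45 in HFCC, 7.41 in HFGC and 7.94 in HFDC. Its HFDC arrays overlapped those of HF.

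Of 48 proteins of the cytosolic ribosome, 1 rose and 5 fell in HF, with a median of -0.07, and 1 rose and 0 fell with coffee, with a median of -0.00088. Of 35 Nduf subunits of respiratory complex I, which uses subunits made on the mitochondrial ribosome, 4 rose and 3 fell in HF, with a median of 0.04. With coffee 0 rose and 8 fell against HF, with a median of -0.09. Without HF replicate 2, the cytosolic proteins gave 0 rises and 2 falls between ND and HF, and the Nduf subunits 2 rises and 1 fall. Of all 18193 genes, 693 rose and 296 fell in that fit. Neither list then held a call between coffee and HF, where 4 of all genes were called.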

How the data were processed

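Liver RNA of 15 mice, 3 a group, was hybridised to 1 array each. The authors computed the deposited intensities, on a linear scale, by RMA from biotin-labelled RNA. RMA subtracts background, equalises the arrays and combines the probes of a set into 1 value, and log2 was taken here. The software used for RMA is not given in the sources used here. Because it forces all arrays to 1 distribution, a change shared by most genes is removed, and the number of arrays limits the precision. Of 45101 probe sets 34945 had exactly 1 gene symbol in the platform annotation and 932 had several, which were left unnamed. Of those with 1 symbol, 34754 were matched to RefSeq genes of GRCm38.p6. Each of 18193 genes was represented by its brightest probe set, and by one ending in _x_at only where it had no other. Groups came from the labels, and by the study's methods the 3 mice of a group were drawn at random from a larger one.

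All 15 arrays entered 1 limma model (limma 3.58.1, R 4.3.3) with 5 group means and 10 residual degrees of freedom, and the procedure was tested on simulated data. P-values were adjusted by Benjamini-Hochberg over all genes. Promoter windows came from a RefSeq table of 300 bases, and the bases after the start were not used. The members, the lists and the tests were chosen with earlier results of these data known. Named members are those called, up to 10 a direction in each comparison, the 3 with the largest absolute difference in each comparison, the 3 brightest and 3 dimmest, and those whose probe sets lie on both sides of 0 with at least 1 called. Of other lists up to 3 called genes are named, with a few exceptions chosen after their values were seen (Mrps36, Stab2). The alternatives were probe sets averaged, all probe sets, the brighter 50% of genes alone, cyclic loess, an offset of 32, the compared groups alone, a replicate block, eBayes with trend and robust, the 3' minus 5' covariate, and each array left out.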

Additional observations from a re-analysis of the deposited data

How the results depend on the processing

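With each array left out in turn, the members called higher between HF and ND numbered 8 to 15 and those called lower 0 to 9. Of all 18193 genes, 693 to 1943 were called higher and 296 to 1189 lower in these fits. Against HF the counts called lower ran from 0 to 10 in HFCC, 0 to 21 in HFDC, 0 to 12 in HFGC and 0 to 21 for the coffee groups together. Over all genes they ran from 2 to 1043, 3 to 1308, 2 to 1109 and 4 to 1663 in the same order. The counts called higher against HF ran from 0 to 3 in HFCC, HFDC and HFGC alike, and from 0 to 4 for the coffee groups together. Over all genes they ran from 0 to 687, 0 to 803, 0 to 751 and 0 to 1075. Against ND the coffee groups together gave 1 to 2 higher and 0 to 3 lower, and the F test 1 to 17. Over all genes these ran from 198 to 468, 134 to 330 and 282 to 2263. The highest counts called lower against HF came without HF replicate 1, and 0 were called without HF replicate 2 and without HF replicate 3. With the 3' minus 5' covariate, HF against ND gave 1 higher and 0 lower. The coffees against HF gave 0, singly and together, and the F test gave 1. Of all genes 11 were called higher and 3 lower for HF against ND, 0 for coffee against HF, and 198 by the F test. The median difference then became 0.13 for HF against ND, and -0.14, -0.16, -0.14 and -0.14 for HFCC, HFDC, HFGC and the coffee groups together against HF. Mrpl50 turned from 0.35 to -0.032 between the coffee groups and HF. In a fit of the compared groups alone, HF against ND gave 2 higher and 0 lower, and each coffee against HF 0. Of all genes 377 were then higher and 104 lower for HF against ND, and 14, 5 and 9 were called for HFCC, HFDC and HFGC. With cyclic loess, HF against ND gave 12 lower, HFCC 1 lower, HFDC 1 higher and 4 lower, and HFGC 1 higher and 0 lower. The coffee groups together gave 6 lower and the F test 5. Over all genes these counts were 1108, 62, 294 and 223, 220 and 221, 786 and 1049, in the same order. The members' medians became -0.024, -0.025, -0.042, -0.0014 and -0.021 for HF against ND and the 4 comparisons with HF. Among the brighter 50% of genes the counts were 11 lower for HF against ND, 6, 18 and 6 lower for HFCC, HFDC and HFGC, and 1 higher for HFGC. They were 23 lower for the coffee groups together and 14 in the F test. Of the 9097 genes in that fit these counts were 638, 619, 1028, 736, 260, 1546 and 1636, in the same order. With the offset, the members' counts were 8, 19, 6 and 23 lower against HF, 5 lower for coffee against ND and 14 in the F test. Over all genes they were 464, 918, 625, 1523, 314 and 1505. With probe sets averaged, HFCC gave 1 lower, and the coffee groups together 2 higher against HF and 1 lower against ND. With all probe sets HFCC gave 1 lower. Over all genes these counts were 102, 429, 290 and 143. The replicate numbers do not pair the livers: over 30 pairs of the same number in different groups, deviations from the group means correlated from -0.28 to 0.23 (median 0.06, other pairs -0.03). With the replicate number as a block, HF against ND gave 9 higher and 5 lower, and HFGC 1 lower against HF. The coffee groups together gave 1 higher and 12 lower, and the F test 7. Over all genes these counts were 1545, 792, 382, 532, 1180 and 1073. Of 53 calls of single members in the 6 comparisons with HF or ND, 41 were lost without HF replicate 2, 39 without HF replicate 3 and 0 without HF replicate 1. With the covariate 47 were lost, with the compared groups alone 30, with probe sets averaged 18, and with cyclic loess 18. Why was not tested. No member was called between coffees in any of these fits.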

Other observations

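Members on probe sets that name another gene as well entered no test. The brighter probe set of Mrpl30, shared with Gm6238, was at 11.30 ± 0.01 in ND, 11.17 ± 0.08 in HF, 11.22 ± 0.05 in HFCC, 11.17 ± 0.06 in HFDC and 11.24 ± 0.05 in HFGC (log2 intensity, SD, n = 3). The probe set of Mrpl53, shared with Ccdc142, was at 10.30 ± 0.06, 10.07 ± 0.16, 10.23 ± 0.10, 10.22 ± 0.04 and 10.29 ± 0.01 in the same order.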
